A study of Mus musculus with 12 samples.

Results

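The regions described here are the ATAC-seq peaks that sit at the ends of protein-coding genes and are less than 3 kb wide. They are the peaks on numbered chromosomes with a width under 3000 bp and a centre no more than 1000 bp from either end of a protein-coding gene in the RefSeq table of GRCm38.p6. The rule used position and width only, and 11623 of 75281 consensus peaks met it (15.4%). They lay within 1 kb of an end of 10770 genes, and their median width was 1148 bp (quartiles 699 and 1754 bp) against 705 bp for all peaks. The nearest gene end was a start for 7157 peaks and the other end for 2161. For 2305 peaks the promoter table gave no strand for the gene, so the end could not be named.

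ATAC-seq uses the Tn5 transposase to cut and tag DNA that nucleosomes do not shield, and read counts over a region measure how open its chromatin is. Gene starts are among the most open regions of a genome, because RNA polymerase and general transcription factors assemble there. Promoters rich in CpG dinucleotides mostly serve genes used in many cell types and are open in most of them. Promoters poor in CpG more often serve genes of a single lineage, and in bone marrow these include the globin and membrane genes of red cell precursors and the granule genes of neutrophils.

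The libraries came from bone marrow of NZO/HILtJ mice, which are inbred and become obese and diabetic, and the question put to the data was how accessibility differs with age. There were 12 libraries in 4 groups of 3 mice each: females and males aged 3 months and females and males aged 18 months. No treatment, transgene or altered allele is given for any group, so all groups share the strain and differ, as labelled, in age and sex. The labels name bone marrow as the tissue, while the protocol attached to every library describes sorting of CD3e+ CD8+ T cells into naive and memory cells, and no label assigns a library to a sorted population. The libraries are called bone marrow here.

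Stretches of 9 promoters are printed first because they carry the contrast described below: peaks higher at 18 months had CpG-poor promoters more often than the rest, while lower peaks had higher CpG ratios. The red cell promoters shown are CpG-poor and were lower. Each stretch is the 160 bases before the RefSeq start (GRCm38.p6), on the strand of the gene, and lies inside the peak of that gene. Capitals mark matches to any of the 14 motifs searched, on either strand, and a match describes letters only. The first 4 promoters had higher accessibility at 18 months, and the other 5 had lower.
Ngp, chr9:110419648-110419807, plus strand: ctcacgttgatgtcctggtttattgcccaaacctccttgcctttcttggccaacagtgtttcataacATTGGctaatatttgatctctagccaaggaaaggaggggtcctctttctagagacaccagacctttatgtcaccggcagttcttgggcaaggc
Plek, chr11:17008719-17008878, minus strand: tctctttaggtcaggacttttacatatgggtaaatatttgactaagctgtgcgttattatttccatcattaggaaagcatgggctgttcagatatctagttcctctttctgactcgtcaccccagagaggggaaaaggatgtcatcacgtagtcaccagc
Ifitm6, chr7:141016893-141017052, minus strand: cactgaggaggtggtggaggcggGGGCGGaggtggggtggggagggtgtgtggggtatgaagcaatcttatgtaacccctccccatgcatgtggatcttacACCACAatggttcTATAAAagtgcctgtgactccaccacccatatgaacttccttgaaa
Ctsc, chr7:88277925-88278084, plus strand: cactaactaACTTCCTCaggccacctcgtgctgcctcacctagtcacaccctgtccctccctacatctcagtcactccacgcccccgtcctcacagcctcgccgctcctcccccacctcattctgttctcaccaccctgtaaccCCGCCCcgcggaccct
Hbb-bs, chr7:103827929-103828088, minus strand: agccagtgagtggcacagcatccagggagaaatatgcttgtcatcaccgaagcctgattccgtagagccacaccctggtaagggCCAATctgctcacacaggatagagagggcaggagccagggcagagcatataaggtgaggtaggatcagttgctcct
Epb42, chr2:121036878-121037037, minus strand: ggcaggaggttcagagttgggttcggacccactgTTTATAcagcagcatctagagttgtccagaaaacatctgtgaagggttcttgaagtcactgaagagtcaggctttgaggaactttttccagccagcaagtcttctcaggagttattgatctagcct
Cdk1, chr10:69352913-69353072, minus strand: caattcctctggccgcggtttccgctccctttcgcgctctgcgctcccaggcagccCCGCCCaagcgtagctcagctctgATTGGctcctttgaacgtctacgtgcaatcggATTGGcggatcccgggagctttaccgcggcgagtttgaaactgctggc
Ccnb2, chr9:70421555-70421714, minus strand: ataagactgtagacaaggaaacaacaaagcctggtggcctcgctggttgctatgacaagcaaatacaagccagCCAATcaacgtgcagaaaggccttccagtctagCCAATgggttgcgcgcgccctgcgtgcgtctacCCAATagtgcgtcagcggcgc
Mboat2, chr12:24831439-24831598, plus strand: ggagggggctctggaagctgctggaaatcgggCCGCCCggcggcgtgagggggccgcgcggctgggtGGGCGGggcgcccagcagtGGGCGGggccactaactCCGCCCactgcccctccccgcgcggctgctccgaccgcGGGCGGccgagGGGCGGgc

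The printed stretches differ plainly in CpG. Mboat2 held 21 CpG dinucleotides and 6 GC boxes (GGGCGG or its reverse complement), and Cdk1 held 16 CpG, 1 GC box and 2 CCAAT boxes. Ccnb2 held 10 CpG and 3 CCAAT boxes, at positions -87, -54 and -21 from the start. The stretches of Ngp, Ifitm6 and Hbb-bs held 2 CpG each, that of Plek held 3, that of Ctsc held 8 and that of Epb42 held 1. The only match to the PU.1-type site GAGGAAGT in these stretches stood in Ctsc at position -151, and Plek held no match to any of the motifs.

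Totals of counts in peaks ranged from 7668099 to 12756647 per library, and 3 counts, taken as the smallest detectable value, lay between 0.235 and 0.391 CPM, a peak's count scaled to a common library total. Per the titles, the 18-month females were sequenced in run 14, the males of that age in run 15, and the young mice in 4 later runs, 28 to 31. Age therefore cannot be told apart from run, and at 18 months neither can sex. Promoters and other ends of several lineages had counts in every library: the 47 neutrophil peaks summed to between 707 and 1118 CPM, the 23 erythroid peaks to between 294 and 538 CPM, the 26 B cell peaks to between 257 and 338 CPM and the 17 T cell peaks to between 152 and 197 CPM. The 3-month male BM-253 was the highest of the 3-month libraries on several lists, with 1080 CPM on the neutrophil list against 707 to 811 CPM in the other 5, 670 CPM on the AP-1 list against 437 to 479 CPM, 685 CPM on the NF-kB list against 548 to 601 CPM, and 204 CPM on the monocyte list against 160 to 179 CPM. It also had the highest young value on lists of other kinds, the B cell, plasma cell, T cell, cholesterol, clock, Mediator and proteasome lists among them.

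Accessibility at gene-end peaks was lower at 18 than at 3 months far more often than it was higher. Of 11610 tested peaks, 2353 (20.3%) were lower and 511 (4.40%) were higher. A call means a Benjamini-Hochberg adjusted p below 0.05 by the quasi-likelihood test of edgeR, in a fit of age and sex. Over all 75164 tested peaks of the series the same test called 21%, of which 11.6% of tested peaks were lower and 9.43% higher. Gene-end peaks were therefore called lower more often than the background and called higher less often. The excess of lower calls lay in the most abundant quartile of all peaks, with 31.1% against 27.8%. In the other quartiles gene-end peaks were lower less often, at 2.25%, 4.37% and 9.78% from the weakest up. All tested peaks there stood at 2.51%, 5.19% and 10.7%. The median log2 fold change was -0.10 (quartiles -0.27 and 0.08) over the gene-end peaks and 0.02 over all tested peaks. A negative value was found for 65.1% of gene-end peaks and 46.95% of all peaks. The changes were small, with a median absolute log2 fold change of 0.42 among called gene-end peaks. A fall of at least 1 on the log2 scale was called at 23 peaks (0.198%) and a rise of that size at 3 (0.0258%), against 0.251% and 0.137% of all tested peaks.

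**Figure D1:**
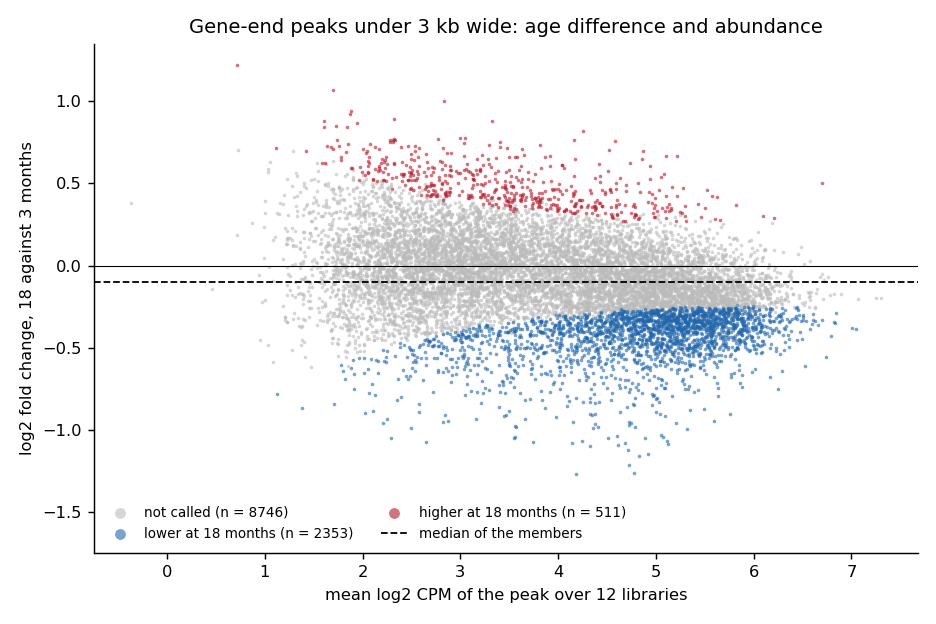
Log2 fold change of accessibility at 18 against 3 months (vertical axis) against the mean log2 CPM over 12 libraries (horizontal axis) for the 11610 tested gene-end peaks, 1 point per peak, with calls from edgeR at an adjusted p under 0.05. The 2353 lower peaks (blue) are concentrated at high abundance, the 511 higher peaks (red) are spread over the range, and the median (dashed) is -0.10.

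These values are relative to the other peaks of a library. Gene-end peaks took 25.7% ± 1.04 (SD, n = 6) of a library's counts at 3 months, with a lowest value of 24.0%, a median of 25.6% and a highest of 27.2%. At 18 months they took 24.2% ± 1.27 (SD, n = 6), with 22.8%, 23.9% and 26.1%. The ranges overlapped: the 18-month males were lowest, at 22.8% to 23.7%, and the 18-month females lay at 24.0% to 26.1%, of which all but BM-42 lay within the range of the young mice. Scaled to library totals alone, the median gene-end peak stood at 4.02 ± 0.027 log2 CPM at 18 months and 4.03 ± 0.022 at 3 months (SD, n = 6). The balance of calls depended on the scaling. Higher peaks made up 17.8% of the called gene-end peaks with TMM factors, 33.9% with library totals, 34.7% and 30.3% with offsets smoothed on abundance and on width, and 45.5% when TMM factors came from the gene-end peaks alone. That last scaling moved the median log2 fold change of all peaks from 0.02 to 0.14 and that of gene-end peaks to 0.02. The gap between both medians was -0.13 with the main TMM factors, -0.049 with offsets smoothed on abundance and -0.061 with those smoothed on width. No peak called in the main test was called in the opposite direction under any of these settings.

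The 511 rising peaks moved against the class. They were narrower and weaker than the falling ones, with a median width of 857 bp against 1723 bp and a median log2 CPM of 3.46 against 4.99. Over all 11610 tested gene-end peaks, called or not, all 6 old mice lay above all 6 young ones in CPM at 222 (1.91%). At 658 (5.67%) they lay below them. The background over all tested peaks was 3.74% higher and 3.99% lower. Of the 511, 507 had a positive log2 fold change in both sexes, which their selection over the same libraries makes likely. Over all tested gene-end peaks the Spearman correlation of female and male changes was 0.46. Leaving out the 3-month male BM-253 raised the number of higher peaks to 768, while leaving out each of the other libraries gave 357 to 480. The lower peaks numbered 1893 to 2613 with 1 library left out.

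Among peaks under 500 bp wide, 87 of 1461 were higher and 47 lower (median log2 fold change 0.04), and among those 2 kb or more wide, 34 of 2064 were higher and 860 lower (median -0.22). Lower calls were also more frequent at wide than at narrow peaks over all tested peaks: in the least abundant quartile and under 500 bp, 7.12% of all peaks were higher and 2.39% lower, and in the most abundant quartile and from 2 to under 3 kb, 5.52% were higher and 38.3% lower. At gene starts 263 of 7149 peaks were higher and 1742 lower, with a median of -0.13, whereas at the other end 121 of 2160 were higher and 170 lower, with a median of -0.00. Starts were also stronger, with a median log2 CPM of 4.47 against 2.98. In the most abundant quartile of all peaks, 1583 of 4817 start peaks were lower (32.9%) and 116 higher (2.41%), against 73 of 474 peaks at the other end lower (15.4%) and 38 higher (8.02%), and there too starts were the stronger, with medians of 4.97 and 4.24 log2 CPM. In the quartile next to the lowest, the shares were 4.07% lower and 6.88% higher at starts and 4.34% lower and 3.99% higher at other ends. Peaks with gene starts on both strands within 1 kb, the arrangement of a bidirectional promoter, were seldom higher: 5 of 616 rose and 191 fell. In the most abundant quartile 2 of 562 rose, against 117 of 4371 with a start on 1 strand. The former were also stronger there, with medians of 5.32 and 4.92 log2 CPM.

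Values at the 2 limits of the rule are given as a description. Just inside the width limit, 1 bp below it, the log2 fold change was -0.23 at Rabif and -0.31 at Ccni, and just outside, at 3000 bp, it was -0.08 at Tmem50b and -0.01 at Rpl10a. Just inside the distance limit, at 1000 bp, it was -0.44 at Tmcc2 and 0.09 at Crim1, and just outside, at 1000.5 bp, -0.05 at Tpd52 and -0.03 at Bckdk. One gene-end peak, at Nsg2, has a start written in scientific notation, so its width is approximate. It was not called.

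The change differed by the CpG content of the promoter. A RefSeq promoter window (250 bases before to 50 after the start) lay with its start within 1 kb of the centre for 6915 tested gene-end peaks. CpG content is given as the ratio of CpG observed to CpG expected from the C and G present, which is near 1 where CpG have not been lost. In windows with a ratio under 0.3, 115 of 755 peaks were higher and 66 lower (median log2 fold change 0.11). From 0.3 to 0.6, 69 of 1190 were higher and 156 lower (median -0.03). From 0.6 to 0.9, 43 of 3195 were higher and 850 lower (median -0.16), and at 0.9 or more, 12 of 1775 were higher and 649 lower (median -0.22). Thus the share higher fell from 15.2% to 0.676% and the share lower rose from 8.74% to 36.6% between the CpG-poorest and CpG-richest classes. The median ratio was 0.316 in the higher, 0.845 in the lower and 0.734 in the uncalled peaks, and 0.586 in all 20085 windows of protein-coding genes on numbered chromosomes.

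**Figure D2:**
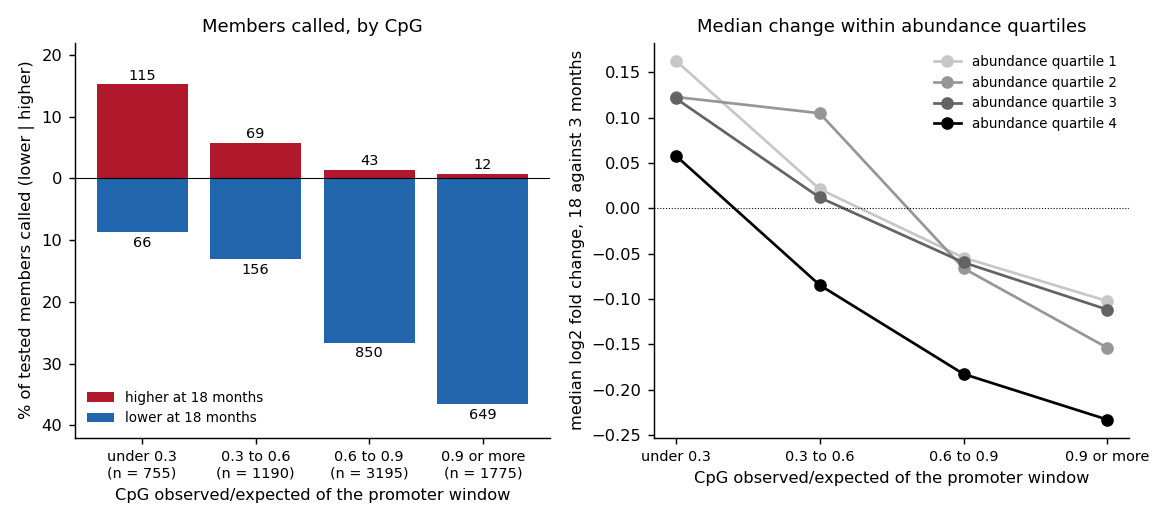
Left, the percentage of tested gene-end peaks called higher (red, upward) and lower (blue, downward) at 18 months in 4 classes of CpG observed/expected, with the number of peaks on each bar. Right, the median log2 fold change in the same classes within each abundance quartile of all tested peaks, which falls from the CpG-poorest to the CpG-richest class in all 4 quartiles.

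The medians kept this order within each abundance quartile, while the shares called did not in the weaker quartiles. In the most abundant quartile, 44 of 225 CpG-poor peaks were higher and 36 lower, against 8 higher and 615 lower of 1477 CpG-rich peaks. The CpG-poor peaks of that quartile were still weaker and narrower. Their medians were 4.40 log2 CPM and 1561 bp, against 5.13 log2 CPM and 1794 bp. The medians kept the same order under all 21 settings of the test, and the CpG-poor median exceeded the CpG-rich one by 0.32 in the main test and by 0.18 to 0.36 over the settings. In single libraries the CpG-poor median lay below the CpG-rich median by 1.94 ± 0.131 log2 CPM (SD, n = 6) at 3 months and by 1.65 ± 0.159 at 18 months. The differences ranged from -2.06 to -1.71 at 3 months and from -1.87 to -1.46 at 18 months. The ages overlapped: the 3-month male BM-252 lay at -1.71, and the 18-month females BM-35 and BM-36 lay at -1.80 and -1.87. The 18-month males, all of run 15, had the smallest gap, and the part of sequencing run or base composition of the libraries in this result was not tested.

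**Figure D3:**
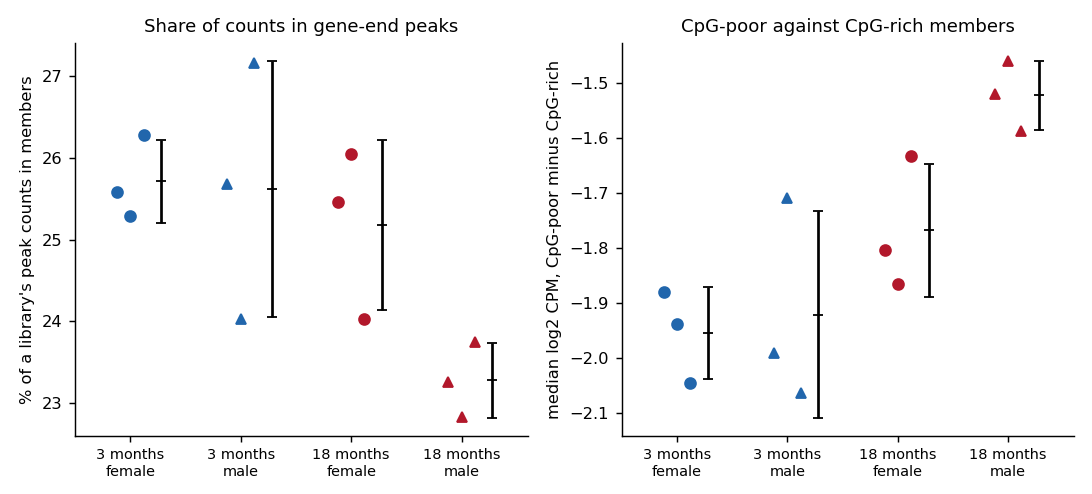
Left, the percentage of each library's peak counts that fell in gene-end peaks, and right, the median log2 CPM of CpG-poor (under 0.3) minus CpG-rich (0.9 or more) gene-end peaks, for the 12 libraries in 4 groups. Circles are females and triangles males, black bars give mean ± SD (n = 3), and the 18-month males lie lowest at left and highest at right.

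Of the 1775 tested CpG-rich promoters, 12 moved against the class. They were chosen after their values were seen, and belonged to Serpine2, AA467197, Scamp5, Bmpr1a, Vps4b, Jrkl, Bcl2, Cyp46a1, Lrrc46 (with Mrpl10), Ube2q1, Nfkbid and Pde8a. Their log2 fold changes ranged from 0.28 at Pde8a to 0.59 at Serpine2, a secreted inhibitor of serine proteases. Bcl2, the founding inhibitor of apoptosis, rose by 0.36 on the log2 scale (SE 0.12, edgeR adjusted p = 0.0213), and Nfkbid, an atypical inhibitor of NF-kB, by 0.28 (SE 0.11, edgeR adjusted p = 0.0474).

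Higher and lower peaks differed in the sequence motifs of their promoter windows. The GC box, GGGCGG, which Sp and KLF factors bind, was in 30.5% of windows of higher peaks, 75.4% of lower and 61.9% of uncalled peaks, against 47.0% of all windows. The PU.1-type site GAGGAAGT, recognised by the myeloid master regulator, was in 9.62% of higher, 2.61% of lower and 3.53% of uncalled peaks, against 3.18% of all windows. The AP-1 site TGANTCA was in 11.7%, 3.08% and 5.25%, against 7.06% of all, and the TATA box core TATAAA in 13%, 4.88% and 7.57%, against 12.7% of all. Some of these gaps went with CpG content. Among CpG-poor windows the PU.1-type site was in 13.9% of higher, 6.06% of lower and 8.01% of uncalled peaks. The AP-1 site was there in 13.9%, 10.6% and 12.9% of the same 3 groups. For the TATA box and the RUNX site the order of higher and lower windows turned there: the TATA box was in 13% of higher, 16.7% of lower and 16.6% of uncalled CpG-poor windows, and the RUNX site in 26.1%, 30.3% and 24.4%. The GATA site AGATAA, bound by the erythroid factor GATA1, was in 18.3% of higher and 21.2% of lower CpG-poor windows. Compared with all CpG classes, given below, the order turned for it too. The ETS core CCGGAA (11.3% of higher and 6.06% of lower CpG-poor windows) and the CCAAT box (40.9% and 37.9%) also turned. The CCAAT box, bound by NF-Y, was in 35.6% of higher, 36.3% of lower and 38.7% of uncalled windows, against 38.1% of all. Over all CpG classes the GATA site was in 10.9% of higher and 5.17% of lower windows, against 9.57% of all. The RUNX site TGTGGT was in 18.8% of higher and 10.4% of lower windows (14.8% of all), the ETS core CCGGAA in 15.5% and 28.2% (19.1% of all), and the YY1 site AAGATGGCG in 0.837% and 4.13% (1.83% of all). The CRE TGACGTCA was in 2.09% and 2.73% (2.30% of all), the NRF1 sequence GCATGCGC in 2.93% and 5.40% (3.55% of all), the E-box CACGTG in 7.95% and 10.3% (7.89% of all), the ZBTB33 core TCTCGCGA in 0.837% and 2.67% (1.36% of all), and the C/EBP sequence TTGCGCAA in 0 of 239 and 1 of 1721 windows (0.219% of all). All motifs were searched on both strands, the ETS core and the PU.1-type site are read by related factors, and motifs that contain CpG overlap with CpG content itself.

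Among the peaks that passed the test, were at or above the median abundance and did not overlap between the ages, 57 rose and 556 fell. These are 0.982% and 9.58% of the 5805 gene-end peaks of that abundance, against 2.52% and 13.2% of all 14954 peaks of that abundance. The 12 largest rises are given here. They were at Lilrb4a, Lilr4b, Ltf, Plek, Ifitm6, Ngp (both ends), Bhlhe40, Ctsc, H2-Eb1, Samd9l and Rnase2a. The 8 of them with a promoter window all had a CpG ratio under 0.6, from 0.00 at H2-Eb1 to 0.514 at Ctsc. All 12 kept their direction and their call under all 20 alternative settings, which their choice for large, separated changes makes likely.

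**Figure D4:**
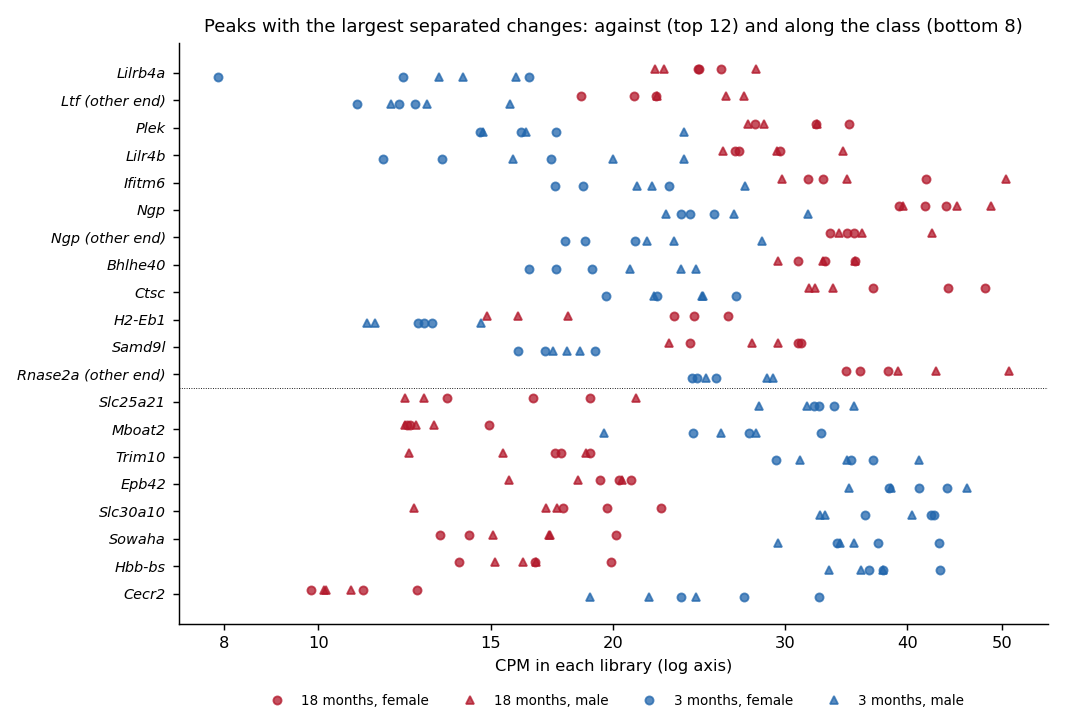
CPM in each of the 12 libraries (log axis) at the 12 gene-end peaks with the largest non-overlapping rises and the 8 with the largest non-overlapping falls, 1 row per peak. Red marks are 18-month and blue marks 3-month mice, circles females and triangles males, and in each row the 6 libraries of each age lie apart.

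Ngp encodes neutrophilic granule protein, a cargo of the secondary granules of neutrophils. Its start peak (chr9:110419120-110420931) read 22.7, 24.7 and 31.7 CPM (lowest, median, highest) at 3 months and 39.2, 42.8 and 48.7 CPM at 18 months. The highest young value was that of male BM-253, and the ages did not overlap. The log2 fold change was 0.67 (SE 0.10, edgeR adjusted p = 1.56e-06). A peak at its other end rose by 0.65 (SE 0.10, edgeR adjusted p = 5.03e-06). Another, weaker peak beyond that end, at 4.96 CPM in the median young and 10.9 CPM in the median old mouse, rose by 0.78.

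Ltf encodes lactoferrin, an iron-binding protein of the same granules. At its other end (chr9:111041226-111042540) CPM was 10.9, 12.3 and 15.7 at 3 months and 18.6, 22.2 and 27.2 at 18 months. Every old mouse lay above every young one. The log2 fold change was 0.77 (SE 0.11, edgeR adjusted p = 1.15e-06), and a narrower peak at the same end rose by 0.88.

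Lilrb4a and Lilr4b are related genes of immunoglobulin-like receptors, of which Lilrb4a encodes an inhibitory receptor of myeloid cells. At Lilrb4a CPM was 7.90, 13.7 and 16.4 at 3 months and 22.1, 24.5 and 28 at 18 months, with no overlap, and the log2 fold change was 0.82 (SE 0.12, edgeR adjusted p = 1.86e-06). Lilr4b rose by 0.70 (SE 0.12, edgeR adjusted p = 1.26e-05). These genes are similar in sequence, so reads may be split between them and neither value is certain on its own.

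Plek encodes pleckstrin, a protein kinase C substrate of platelets and leukocytes. Its start peak (chr11:17007995-17009018) read 14.6, 16.2 and 23.6 CPM at 3 months and 27.5, 30.4 and 34.9 CPM at 18 months. The young male BM-253 lay well above the other young mice, yet below every old one. The log2 fold change was 0.76 (SE 0.12, edgeR adjusted p = 2.51e-06).

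Ctsc encodes cathepsin C, which activates the serine proteases of granules. Its start peak (chr7:88277122-88278661) read 19.7, 23.4 and 26.7 CPM at 3 months and 31.7, 35.3 and 48.1 CPM at 18 months. The old females were highest, at 43.0 ± 5.65 CPM (SD, n = 3) against 32.5 ± 0.980 CPM in old males. Over both sexes the log2 fold change was 0.61 (SE 0.11, edgeR adjusted p = 4.48e-05). The sexes gave 0.87 and 0.34, a difference that did not pass the interaction test (edgeR adjusted p = 0.358).

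H2-Eb1 encodes a beta chain of MHC class II, which presents antigen to T cells. Its level was 12.8 ± 0.224 CPM in young females, 12.4 ± 1.93 CPM in young males, 24.5 ± 1.57 CPM in old females and 16.3 ± 1.58 CPM in old males (SD, n = 3 each). The highest young mouse, at 14.7 CPM, lay just under the lowest old one, at 14.9 CPM. The log2 fold change was 0.60 (SE 0.12, edgeR adjusted p = 0.000195). Within males it was 0.28 (edgeR adjusted p = 0.273), and the age by sex interaction did not pass (edgeR adjusted p = 0.342).

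Ifitm6, of the interferon-induced transmembrane family, read 17.5, 21.5 and 27.3 CPM at 3 months and 29.8, 33.8 and 50.5 CPM at 18 months, a log2 fold change of 0.70 (SE 0.12, edgeR adjusted p = 1.26e-05). Bhlhe40, a basic helix-loop-helix repressor, rose by 0.63 and Samd9l, an interferon-inducible restrictor of virus growth, by 0.58. Rnase2a, an eosinophil-associated ribonuclease, rose by 0.54 at its other end. None of these 4 overlapped between the ages.

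The 3 peaks that rose by at least 1 on the log2 scale were weak, and were named after their values were seen. They lay at Cxcr5, the chemokine receptor that guides B cells to follicles, and at Bmpr1a (other end) and Gpr137b. At Cxcr5 CPM was 10.7 to 11.7 in old females, 6.95 to 7.96 in old males and 2.44 to 6.62 in young mice. The ages did not overlap, and the log2 fold change was 1.00 (SE 0.18, edgeR adjusted p = 3.70e-05).

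Among the gene lists, the neutrophil and monocyte lists had the highest shares of higher peaks, and the erythroid and the replication and mitosis lists the highest shares of lower peaks. The lists were chosen with earlier results of these data known, so their counts describe and do not test. For comparison, 4.40% of all gene-end peaks were higher and 20.3% lower. Of 47 tested peaks at neutrophil genes, 22 were higher and 0 lower, with a median log2 fold change of 0.28 against -0.10 for all gene-end peaks. The summed CPM of the list was 985 to 1118 at 18 months and 707 to 1080 at 3 months, and the overlap came from male BM-253 alone. Beside Ngp and Ltf the risers included S100a8 (0.67), which makes a subunit of calprotectin, Lcn2 (0.55), Camp (0.49), Mmp8 (0.51) and the C/EBP transcription factor genes Cebpb (0.35) and Cebpa (0.27). Peaks at Mpo (0.07), Csf3r (0.07) and Cebpe (-0.09 to 0.13) were not called. Leaving out the 3-month female BM-244 left 14 neutrophil peaks higher, and the other alternatives gave 15 to 28. In a mixture of cells, more cells of a type and more open chromatin per cell cannot be told apart.

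**Figure D5:**
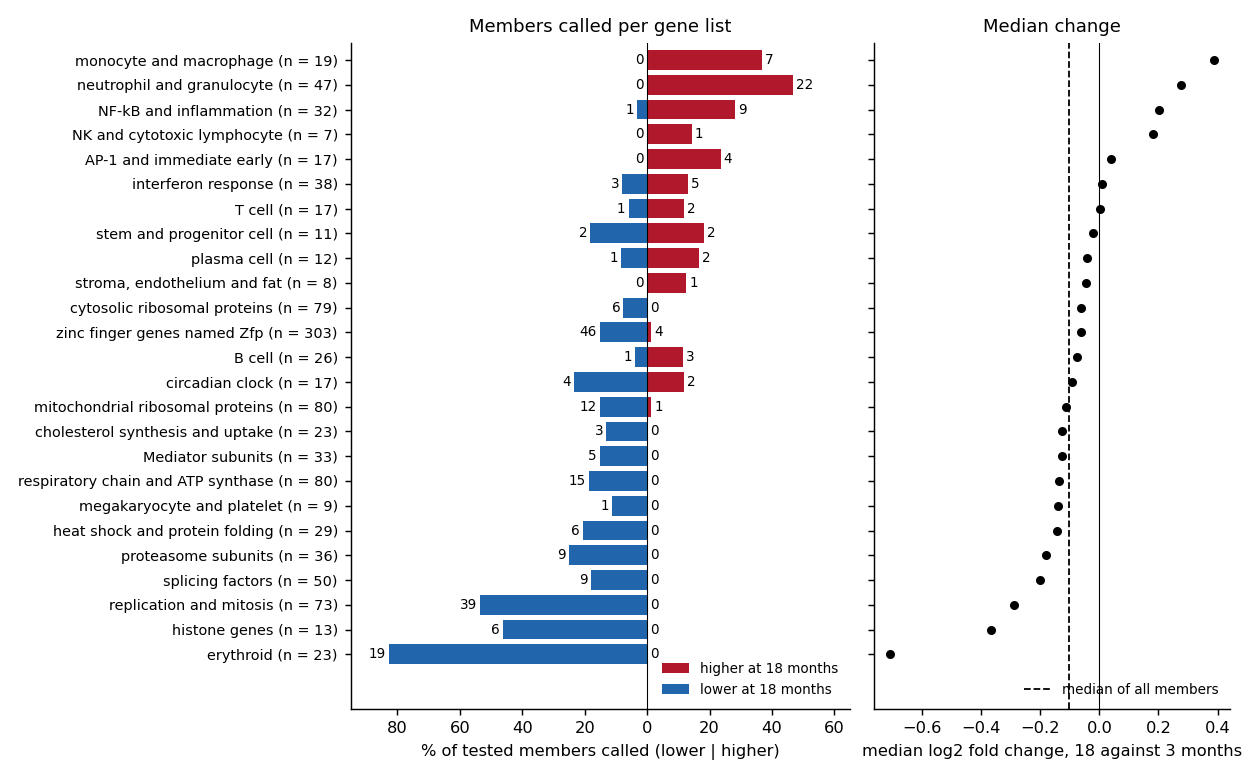
Left, the percentage of tested gene-end peaks of each gene list called higher (red) or lower (blue) at 18 months, with the number of peaks at each bar and the number tested beside the name. Right, the median log2 fold change of each list, with the median of all gene-end peaks (-0.10) dashed; monocyte and neutrophil lists lie highest and the erythroid list lowest.

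Of 19 monocyte and macrophage peaks, 7 were higher and 0 lower (median 0.39), and the summed CPM was 212 to 243.1 at 18 months and 160 to 204 at 3 months, without overlap. The 7 were at Ms4a7 (0.74), the chemokine receptors Cx3cr1 (0.56) and Ccr2 (0.47), Adgre1 (0.55), which encodes F4/80, Lyz2 (0.51), Cd14 (0.46) and Hmox1 (0.44). Without the 18-month male BM-40 or the 3-month female BM-244, 4 monocyte peaks were higher, and with library totals 12 and with TMM factors from the gene-end peaks 13. Peaks at Irf8 read -0.29 and 0.06 and were not called.

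On the NF-kB and inflammation list 9 of 32 peaks were higher and 1 lower (median 0.20), and the summed CPM was 676 to 743 at 18 months and 548 to 685 at 3 months, with overlap through BM-253 alone. With TMM factors from the gene-end peaks 14 were higher, and 2 were lower without BM-38, BM-39, BM-252 or BM-253. The risers were Casp1 (0.68) and Casp4 (0.67), the inflammatory caspases, Nfkbiz (0.63), Cxcl2 (0.57), Tnf (0.56), Ccl3 with its neighbour Ccl4 (0.51), Cd83 (0.38), Nfkbia (0.37) and Nfkbid (0.28). The peak that fell was at Rela (-0.35), which encodes the p65 subunit of NF-kB, and it did not pass with offsets smoothed on abundance or width or with the young libraries of runs 29 and 31 alone. At Casp1 CPM was 7.05, 9.29 and 12.1 at 3 months and 14.3, 15.4 and 17 at 18 months, with no overlap (edgeR adjusted p = 7.88e-05). On the AP-1 and immediate early list 4 of 17 were higher, at Fosl2 (0.85), Batf (0.55), Fosl1 (0.38) and Klf6 (0.29), and 0 were lower. With 1 library left out, 1 AP-1 peak was higher without the young female BM-245, 2 without BM-36, BM-42, BM-39, BM-243 or BM-244, and up to 6 otherwise.

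On the interferon response list 8 of 38 peaks were called, a share near the 24.7% of all gene-end peaks. Higher peaks were 13.2% of the list against 4.40% of all gene-end peaks, and lower peaks 7.89% against 20.3%. Of the called peaks 5 were higher, at Ifit3 (0.70), Zbp1 (0.55 and 0.31), Ifitm1 (0.43) and Ddx58 (0.40), and 3 were lower, at Usp18 (-0.57), Rsad2 (-0.40) and Isg15 (-0.32). Usp18 removes the ISG15 modifier from proteins, and its peak read 24.9, 29.9 and 31.3 CPM at 3 months against 19.3, 20.6 and 23.3 CPM at 18 months, with no overlap (edgeR adjusted p = 4.93e-05). With 1 library left out the count of rises was 0 without the 18-month male BM-39, 1 without BM-35, BM-42 or BM-40, 2 without BM-244 or BM-252, 3 without BM-245, BM-251 or BM-253, and 5 at most. With TMM factors from the gene-end peaks, 11 were higher and 1 lower. On the clock list 2 of 17 peaks were higher, at Nfil3 (0.73) and Bhlhe40 (0.63), and 4 were lower (23.5%, near the 20.3% of all gene-end peaks), Tef (-0.49), Csnk1d (-0.30) and Nr1d2 (-0.28) among them. Lower clock peaks numbered 2 with offsets smoothed on width or TMM factors from the gene-end peaks.

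The other blood cell lists had small numbers of calls, in shares on both sides of the 24.7% of all gene-end peaks called in either direction. Higher peaks made up 11.5% of the B cell and 11.8% of the T cell list against 4.40% of all gene-end peaks, and lower peaks 3.85% and 5.88% against 20.3%. Of 26 B cell peaks 3 were higher, at Cxcr5 (1.00), Cd74 (0.72) and Cd37 (0.35), and 1 was lower, at Pou2af1 (-0.35). Of 17 T cell peaks 2 were higher, at Cd3d (0.45) and Cd28 (0.44), and 1 was lower, at Il7r (-0.50). Irf4 rose at both ends (0.37 and 0.69) and Sdc1 fell (-0.47) among 12 plasma cell peaks. Of 11 stem and progenitor cell peaks 2 were higher, at Egfl7 with Agpat2 (0.52) and Hoxb4 (0.43), and 2 lower, at Sox4 (-0.49) and Myb (-0.31). Each of the NK, megakaryocyte and stromal lists had a single call, at Gzma (0.43), Gp1ba (-0.34) and Kdr (0.49). These small counts changed with single libraries and with the scaling. T cell peaks higher went to 1 without BM-35, BM-36, BM-39, BM-40, BM-244, BM-245 or BM-251, and T cell peaks lower to 0 without BM-35, BM-38, BM-39, BM-40, BM-244, BM-251 or BM-252. With TMM factors from the gene-end peaks the T cell list had 4 higher and 0 lower. B cell peaks lower were 0 without BM-35, BM-39, BM-40, BM-245, BM-251 or BM-253, 2 without BM-36 or BM-252 and 3 without BM-244. Plasma cell peaks higher were 1 without BM-35, BM-38, BM-244, BM-245 or BM-251, and those lower were 0 without BM-39, BM-245 or BM-251, 2 without BM-252 and 3 without BM-36. Stem and progenitor peaks higher were 1 without BM-35, BM-42, BM-39, BM-244, BM-245, BM-251 or BM-252, and those lower were 1 without BM-35, BM-36, BM-39, BM-40, BM-244, BM-245 or BM-251. The megakaryocyte list had 0 lower without BM-35, BM-36 or BM-245 and 2 without BM-39 or BM-253, and the stromal list had 0 higher without BM-245.

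The erythroid list moved along the class and had the lowest median of all lists. Of 23 erythroid peaks 19 were lower and 0 higher, with a median log2 fold change of -0.71, and 18 to 20 were lower under all alternative settings. The summed CPM was 453 to 538 at 3 months and 294 to 326 at 18 months, with no overlap. Of the 12 with a promoter window, 10 had a CpG ratio under 0.6 and 6 a ratio under 0.3, and 6 of the 66 falling peaks with a ratio under 0.3 were on this list. At neutrophil genes 25 of 27 windows had a ratio under 0.6, with a median of 0.157 against 0.325 at erythroid genes, and 11 of them were among the 115 CpG-poor risers and 0 among the fallers.

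Hbb-bs encodes an adult beta globin. Its start peak (chr7:103827577-103828968) read 33.2, 37.2 and 43.3 CPM at 3 months and 13.9, 16.4 and 19.9 CPM at 18 months. The lowest young mouse lay far above the highest old one, and females and males gave the same log2 fold change, -1.26 and -1.27. Over both sexes it was -1.26 (SE 0.11, edgeR adjusted p = 2.13e-12). The neighbouring globin gene Hbb-bt fell by 1.08, but the copies are nearly identical and reads may be split between them.

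Epb42 encodes protein 4.2 of the red cell membrane skeleton. Its start peak (chr2:121035606-121037578) read 34.9, 39.8 and 46.0 CPM at 3 months and 15.6, 19.9 and 20.9 CPM at 18 months, with no overlap. The log2 fold change was -1.15 (SE 0.10, edgeR adjusted p = 1.51e-11). The blood group and membrane genes Rhag (-1.07), Rhd (-1.05) and Ermap (-0.95), the alpha globin gene Hba-a1 (-1.05), the ferrochelatase gene Fech (-0.73) and the transferrin receptor gene Tfrc (-0.60) fell as well. Peaks at Epor, the erythropoietin receptor, and at its neighbour Swsap1 read -0.19 and -0.15 and were not called.

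The other large falls were at Cecr2, Sowaha, Slc30a10, Trim10, Mboat2 and Slc25a21. Cecr2, a subunit of chromatin remodelling complexes, read 18.9, 23.9 and 32.5 CPM at 3 months and 9.82, 10.5 and 12.6 CPM at 18 months, and fell by 1.27 on the log2 scale (SE 0.12, edgeR adjusted p = 2.78e-11). Mboat2, a lysophospholipid acyltransferase with a CpG-rich promoter (ratio 0.928), read 19.6, 26.7 and 32.7 CPM against 12.3, 12.5 and 14.9 CPM, and fell by 1.10. Sowaha (-1.22), Slc30a10, a manganese exporter (-1.16), Trim10 (-1.12) and Slc25a21, a mitochondrial carrier (-1.09), fell by similar amounts, and none of the 6 overlapped between the ages.

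At promoters and other ends of the replication and mitosis genes, 39 of 73 peaks (53.4%) were lower and 0 higher. Of all gene-end peaks 20.3% were lower, and 31.1% of those in the most abundant quartile. The list was itself abundant, with a median log2 CPM of 4.93. Its median log2 fold change was -0.29, and the summed CPM was 2229 to 2549 at 3 months and 1939 to 2308 at 18 months. Those ranges overlapped. The falls spanned the cell cycle, from licensing and replication at Cdc6 (-0.58), Mcm2 (-0.33) and Prim1 (-0.50) to mitosis at Ccnb1 (-0.50), Plk1 (-0.44) and Top2a (-0.56). With offsets smoothed on width 19 were lower, with those smoothed on abundance 22, and with TMM factors from the gene-end peaks 22, and 0 were higher under every setting run.

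Ccnb2, a B-type cyclin, read 31.7, 36.1 and 43.1 CPM at 3 months and 20.5, 23.9 and 26.5 CPM at 18 months. No old mouse reached the lowest young value, and the log2 fold change was -0.70 (SE 0.10, edgeR adjusted p = 1.19e-06). Cdk1, the kinase that B-type cyclins activate, read 26.2, 36.8 and 39.4 CPM against 19.9, 22.7 and 25.9 CPM, and the log2 fold change was -0.68 (SE 0.11, edgeR adjusted p = 4.11e-06). Of 13 peaks at histone genes 6 were lower and 0 higher, at H4c17 (-0.91), H1f10 (-0.70), H4c11 (-0.52), H4c18 (-0.42), H3c15 (-0.40) and H3c6 (-0.37). Histone copies are alike in sequence, so their single values are uncertain.

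On most housekeeping lists the share of lower peaks was near or under the 20.3% of all gene-end peaks. It ran from 7.59% for cytosolic ribosomal proteins to 25% for the proteasome. None of 79 peaks at cytosolic ribosomal protein genes was higher and 6 were lower, with a median of -0.06. The respiratory chain list had 15 of 80 lower (median -0.14), the mitochondrial ribosome 12 of 80 lower and 1 higher (median -0.11), the proteasome 9 of 36 (median -0.18) and the splicing factors 9 of 50 (median -0.20). The heat shock list had 6 of 29 lower (median -0.14), Mediator 5 of 33 (median -0.13) and cholesterol synthesis 3 of 23 (median -0.13). Of 303 peaks at genes named Zfp, 46 were lower and 4 higher (median -0.06), and the 4 were Zfp996 (0.55), Zfp939 (0.53), Zfp658 (0.47) and Zfp719 (0.31). Some of these lists changed direction with the scaling. Under abundance-smoothed offsets the cytosolic ribosomal list had 5 peaks higher and 2 lower, cholesterol synthesis 5 and 2 and heat shock 3 and 1, and with TMM factors from the gene-end peaks the Zfp list had 36 higher and 30 lower. Abundance-smoothed offsets left 7 respiratory chain, 4 mitochondrial ribosome, 2 proteasome and 4 splicing peaks lower, and TMM factors from the gene-end peaks left 11, 7, 2 and 4. Single libraries moved several counts by more than 1.5 times. Lower proteasome peaks numbered 3 without BM-42 or BM-38, 2 without BM-39 and 4 without BM-251, and lower splicing peaks 5 without BM-38 or BM-39 and 14 without BM-36. Lower peaks numbered 3 for cytosolic ribosomal proteins without BM-39, 2 for Mediator without BM-251, 3 for heat shock without BM-42, BM-39 or BM-251, 6 for cholesterol synthesis without BM-36 or BM-252, and 7 for the mitochondrial ribosome without BM-245. Higher Zfp peaks numbered 11 without BM-253, and higher mitochondrial ribosome peaks 2 without BM-40, BM-243 or BM-253.

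For 1042 genes a gene-end peak stood at each end. The start was lower at 295 and higher at 41, and the other end lower at 81 and higher at 69, with medians of -0.17 and 0.01. Both ends were called in the same direction for 63 genes (45 lower, 18 higher). They were called in opposite directions for 6, and at all 6 the start was the end that fell. The repressor of B and T cell differentiation Bach2 fell at its start by 0.57 and rose at its other end by 0.41. The DNA mismatch repair gene Pms1, whose start peak is shared with Ormdl1, gave -0.36 and 0.70, Dgke -0.34 and 0.60, Slc25a12 -0.37 and 0.50 and Ap3m1, whose start peak is shared with Adk, -0.30 and 0.43. The sixth, Hcfc2, lay outside the rule for named peaks and gave -0.27 and 0.41. CPM overlapped between the ages at both ends of the 5 genes the rule named.

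In females 424 gene-end peaks were higher and 884 lower at 18 months (median -0.06), and in males 140 were higher and 2092 lower (median -0.16). The background over all tested peaks was 5.7% higher and 6.2% lower in females and 3.21% higher and 8.18% lower in males. The gene-end shares were 3.65% and 7.61% in females and 1.21% and 18.0% in males. Of 618 peaks called in both sexes, which are 47.2% of the female and 27.7% of the male calls, 617 had the same direction, 582 lower and 35 higher. The sexes differed in the number of calls, but 0 gene-end peaks passed the age by sex interaction test in edgeR (1555 at an unadjusted p under 0.05), where the background was 0.00532%. DESeq2 called 1, at the other end of Otulin, a deubiquitinase that restrains inflammatory signalling. It read 21.8 to 23.5 CPM in old females, 11.2 to 14.1 CPM in old males and 12.2 to 15.3 CPM in young mice, and its edgeR adjusted p was 0.128. Without the 3-month male BM-252, 530 gene-end peaks passed, and the male falls rose from 2092 to 3271. Without the 18-month female BM-42, 1 passed, at Zfp788. Sex gave 1 gene-end call (1094 at an unadjusted p under 0.05) against a background of 0.162%, at the start of Cd2ap, an adaptor of the T cell surface protein CD2, which was lower in males by 0.54 on the log2 scale (edgeR adjusted p = 0.0315).

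Counts within a sex moved by more than 1.5 times with single libraries. The female rises went to 195 and 155 without BM-35 and BM-36 of 18 months, and to 157 and 218 without BM-244 and BM-245 of 3 months. The female falls went to 495, 587 and 561 without BM-35, BM-36 and BM-42, and to 371 without BM-245. The male rises went to 63, 80 and 77 without BM-38, BM-39 and BM-40 of 18 months, and to 55 and 223 without BM-251 and BM-252 of 3 months. The male falls went to 1183 and 1067 without BM-38 and BM-39, and to 1108 and 1246 without BM-251 and BM-253.

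Set beside other classes of peaks, gene-end peaks were higher less often than intragenic and intergenic peaks of the same abundance quartile and width class. Intragenic peaks over 3 kb from a gene end were higher at 2507 and lower at 2785 of 29042 (median 0.03), and intergenic peaks 3 to 50 kb from a gene end higher at 2069 and lower at 1115 of 15220 (median 0.12). In the most abundant quartile and 1 kb to under 2 kb wide, gene-end peaks were 3.29% higher and 27.4% lower. Intragenic peaks there were 12.0% and 22.6%, and intergenic peaks 20.1% and 16.3%. Abundance still differed, with median log2 CPM of 4.66, 4.11 and 4.13 in that order. At that width in the quartile below, gene-end peaks were lower less often, at 11.2% against 16.0% and 16.4%. Between 2 and 3 kb in the most abundant quartile, 41.7% of gene-end and 40.6% of intragenic peaks were lower, while 1.65% and 5.94% were higher. Their median log2 CPM was 5.48 and 4.77. Over all widths, the median of gene-end peaks minus that of intragenic peaks was -0.13, and -0.029 with offsets smoothed on abundance. Peaks 3 kb or wider had a median of -0.21, with 43.9% lower and 5.54% higher. These differences between classes are descriptions and were not tested.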

How the data were processed

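The authors deposited 1 table of read counts over consensus peaks for 12 ATAC-seq libraries, in whole numbers with a smallest value of 1. Per the submitters' processing notes, Trimmomatic, BWA, MACS2, DiffBind and edgeR were used with the mm10 build; their settings, the removal of duplicates and any shift of reads to the cut site are not given in the sources used here. A floor of 1 compresses folds of the lowest peaks, and unlabelled PCR copies cannot be told apart in the counts. Groups, mice and runs came from the labels.

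Peaks were matched by position to RefSeq genes of GRCm38.p6, the same assembly as mm10. Gene strand, starts and sequences came from the RefSeq promoter table (20085 windows of 16457 protein-coding genes on numbered chromosomes, none on chromosome 18). The genome itself was not used here. A peak was tested where 2 or more libraries exceeded 1 CPM (75164, of them 11610 gene-end peaks, with 13 left out) with edgeR 4.0.16 in R 4.3.3: TMM factors, glmQLFit and glmQLFTest on age and sex over 12 libraries, and a 4-group model for each sex and the interaction, with Benjamini-Hochberg adjustment over all tested peaks and a threshold of 0.05. SE came from the F statistic. CPM in a library is the count scaled to the library total in peaks, without the TMM factors of the fits. Overlap between ages was judged on that scale. The mean log2 CPM of a peak came from edgeR with those factors. The procedure was tested on simulated data with a small share of changed peaks, balanced between rises and falls. The simulation held no run effect and no shift of a whole class, so it does not bear on the scaling. Alternatives were DESeq2 1.42.0, library totals, offsets smoothed by loess (span 0.3) on abundance or width, no filter, TMM on gene-end peaks, each library left out, and the young libraries of runs 29 and 31 alone. Adjusted p-values in the text come from edgeR fitted across all peaks.

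Named peaks were those called, of at least the median abundance of tested gene-end peaks, and without overlap between the ages; the 12 largest against and 8 largest along the class were taken. Up to 3 called peaks per list and up to 5 genes with opposite ends were added, and a peak takes the name of the nearest gene end. The class, the lists and the tests were chosen with earlier results of these data known. Per the labels, each library carries its own number, taken as the mouse; no label says more about their independence. Values of some genes on the lists are not reported here.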

Additional observations from a re-analysis of the deposited data

Results flagged for a closer look

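At the 20 peaks named for their size of change, and in the share of counts in gene-end peaks, 42 groups of 6 libraries were examined for a library far from the rest, using a gap of more than 0.625 of the group's range; chance alone marks about 1 in 20 such groups. At Plek the 3-month male BM-253 read 23.6 CPM, against 14.6 to 17.5 CPM in the other 5 young mice. At the other end of Ngp the 18-month male BM-38 read 42.4 CPM, against 33.4 to 36 CPM in the other old mice. At Mboat2 the 18-month female BM-42 read 14.9 CPM, against 12.3 to 13.1 CPM. The ages did not overlap at any of the 3 peaks with these libraries included.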

How the results depend on the processing

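Of the 95 tested peaks named, all 20 with the largest changes kept direction and call under 20 alternative settings. Their choice for large, separated changes makes this likely. For the 95 together 1678 values kept both, 222 no longer passed and 0 reversed. With library totals, 913 peaks were higher (males 334), 1336 lower in males, and the median log2 fold change was -0.024. With offsets smoothed on abundance, 825 were higher and 1556 lower (females 643 higher, males 646 lower), the median was -0.039, the differences from intragenic and intergenic peaks were -0.029 and -0.12, and the CpG-poor minus CpG-rich median was 0.18. Smoothed on width, 1513 were lower (males 930), with -0.055 for the median and -0.046 and -0.12 for those differences. With TMM factors from gene-end peaks, 1247 were higher and 1491 lower (females 682 higher, males 548 higher and 914 lower). With their median set equal in every library, 1236 and 1503 were (females 707 higher, males 519 higher and 968 lower). The median of gene-end peaks was then 0.019 and 0.016, a reversal that follows from scaling on those peaks. DESeq2 gave 1 interaction call. With young libraries of runs 29 and 31 alone, 1234 were lower in males and the median was -0.077. Starts alone gave 263 higher and a median of -0.13, and widths under 1500 bp gave 880 lower and -0.036. With 1 library left out, the ranges were 357 to 768 higher and 1893 to 2613 lower over both sexes, 155 to 574 and 371 to 1274 in females, 55 to 223 and 1067 to 3271 in males, 0 to 530 interaction calls, and 14 to 27 neutrophil peaks higher. No paired analysis was possible because the age groups share no mouse numbers. The 3 counts taken as the smallest detectable value, up to 0.391 CPM, limit the weakest peaks, and 3 mice per group limit the comparison of the sexes.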
